A study of Mus musculus with 15 samples.

Results

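The genes described here encode 6 ATP-binding cassette (ABC) efflux pumps of xenobiotics, Abcb1a, Abcg2, Abcc2, Abcc1, Abcc3 and Abcc4. They were chosen by name, with earlier results of these data known. All 6 were among the 11505 genes that had a value in all 15 RNA-seq libraries of mouse large intestine and passed the filter on low values. The libraries came from male C57Bl/6 mice, 4 weeks old, and formed 5 groups with 3 libraries in each. Every group, the vehicle group included, received Cremophor EL with 10% DMSO by mouth on 3 days, 24 h apart, and the tissue was taken 12 h after the last gavage. The treated groups received in it either cymopol, which is a prenylated bromohydroquinone first isolated from a green seaweed of the genus Cymopolia, or a non-polar algal extract. Cymopol was given at 1.4 mmol/kg (high dose) or 0.3 mmol/kg (low dose), and the extract at 1.0 g/kg (high dose) or 0.3 g/kg (low dose). Whether each library of a group is a separate mouse is not stated in the labels, and the p-values otherwise measure the spread between samples that may be technical. The study asked how a high and a low dose of each agent changed intestinal transcripts. Because the agents were dosed in different units, their values are set side by side, and no cymopol group was tested against an extract group. Only their differences between doses were tested against each other.

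ABC efflux pumps are membrane proteins that use ATP to move drugs, dietary compounds and their glucuronide, sulfate and glutathione conjugates out of cells. In the intestinal epithelium, P-glycoprotein (ABCB1), BCRP (ABCG2) and MRP2 (ABCC2) sit mainly in the apical membrane and return compounds to the lumen. MRP3 (ABCC3) and MRP1 (ABCC1) sit in the basolateral membrane and pass conjugates towards the blood, and MRP4 (ABCC4) is found in either membrane depending on the cell. Several of these genes are known targets of NRF2, the factor that answers electrophiles such as quinones, of the aryl hydrocarbon receptor AHR and of the nuclear receptors PXR and CAR.

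Abcc3, Abcc4 and Abcg2 were the members whose values did not overlap between a high dose group and another group. No promoter was found for Abcc3, nor for Abcc1, so promoter sequences are shown for Abcc4 and Abcg2. Each is the 250 bases before a RefSeq transcript start on GRCm38.p6, read on the strand of the gene. The Abcc4 window is chr14:118706220-118706469 on the minus strand, and the Abcg2 window, the third of 3 starts listed for that gene, is chr6:58640296-58640545 on the plus strand. Capitals mark matches, on either strand, to the core of the antioxidant response element (TGACNNNGC), to which NRF2 binds, and to the core of the xenobiotic response element (GCGTG), to which AHR binds.
Abcc4: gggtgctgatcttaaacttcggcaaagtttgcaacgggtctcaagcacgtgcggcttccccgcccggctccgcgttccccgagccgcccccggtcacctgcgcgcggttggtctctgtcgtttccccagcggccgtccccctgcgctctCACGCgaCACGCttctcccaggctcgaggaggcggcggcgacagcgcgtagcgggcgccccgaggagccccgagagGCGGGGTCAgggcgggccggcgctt
Abcg2: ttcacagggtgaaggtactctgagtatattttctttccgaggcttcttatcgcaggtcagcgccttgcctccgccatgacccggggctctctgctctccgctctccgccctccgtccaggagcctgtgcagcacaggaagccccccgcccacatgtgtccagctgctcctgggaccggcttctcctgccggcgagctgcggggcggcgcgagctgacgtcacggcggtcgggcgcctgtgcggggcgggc
The Abcc4 window held 1 antioxidant response element core, which begins 25 bases before the start and reads GCGGGGTCA on the gene's strand. It also held 2 xenobiotic response element cores, which begin 101 and 94 bases before the start and overlap neither each other nor the other match. The second Abcc4 window held 1 antioxidant core (TGACTCTGC, 23 bases before that start), and the Abcc2 window held 1 (TGACATAGC, 98 bases before its start). The 3 Abcg2 windows held neither motif. The Abcb1a window, chr5:8566841-8567090, also held neither, but it belongs to a RefSeq start far upstream of the GENCODE gene start at 8660077, and the sequence next to that start was not searched here. Among 32851 promoter windows of the same length, 10.2% held the antioxidant core and 28.2% the xenobiotic core, so a match is common and describes the letters only.

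The tables give FPKM, a fragment count set relative to the length of the transcript and the size of the library, so that levels of different genes can be set beside each other within a library. Depth differed widely. Protein-coding genes held an estimated 174904 to 556401 fragments in the 6 high dose libraries, 28513 to 183362 in the 6 low dose libraries and 25233 to 226531 in the 3 vehicle libraries. Intergenic loci held over 20% of the estimated fragments in vehicle 2 (46.8%), vehicle 5 (25.1%) and extract low dose 26 (23.6%), where numbers are the replicate numbers of the labels. Markers of the labelled tissue were present: the 6 epithelial markers, such as Epcam and Vil1, summed to 46.4 to 440 FPKM in the vehicle, 188 to 779 in the cymopol low dose, 706 to 1050 in the cymopol high dose, 27.7 to 438 in the extract low dose and 410 to 844 in the extract high dose. Each of the 6 was above 0 in at least 1 library of every group. The 7 smooth muscle markers summed to 93.6 to 1049 FPKM in the vehicle, 540 to 1215 in the cymopol high dose and 389 to 903 in the extract high dose. At the low doses they summed to 607 to 1003 (cymopol) and 57.8 to 961 (extract). The 7 endothelial markers, of a cell type known to carry P-glycoprotein and BCRP, summed to 0 to 57.3 in the vehicle, 5.64 to 33.6 in the cymopol high dose and 4.91 to 7.13 in the extract high dose, with Emcn at 0 in all 3 cymopol high dose libraries. In bulk tissue, fewer cells of a type and less RNA per cell cannot be told apart, and the part of depth or of cell content, epithelial or other, in any difference below was not tested. Most member values did not come from annotated rows. Values of Abcb1a, Abcc2, Abcc1 and Abcc3 came from loci that the authors' software assembled over the gene in all 15 libraries, those of Abcg2 in 14, and those of Abcc4 in 4.

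Abcb1a (chromosome 5, 8660077 to 8748575, plus strand, GRCm38), which encodes P-glycoprotein, and Abcc3 were the most abundant members per length. One of the pair ranked first of the 6 in 14 libraries, Abcb1a in 6 and Abcc3 in 8. Abcb1a was listed at 5.50, 33.3 and 126 FPKM in the vehicle (replicates 2, 4 and 5) and at 2.54, 99.2 and 62.7 in the cymopol low dose (33, 34 and 35). It was listed at 50.9, 44.3 and 62.1 in the cymopol high dose (11, 12 and 14), at 2.79, 39.9 and 48.5 in the extract low dose (26, 27 and 29) and at 43.7, 169 and 47.7 in the extract high dose (21, 23 and 25). The vehicle, cymopol low dose and extract low dose groups each held 1 library below 6 FPKM, and none of the 6 high dose libraries fell below 43.7. Those low values rested on an estimated 1.84 (vehicle 2), 0.0393 (cymopol low dose 33) and 0.498 (extract low dose 26) fragments. Each had a deposited lower bound of 0. After median-of-ratios scaling they became 37.7, 4.86 and 43.7. The high dose libraries then ran from 18.8 (cymopol high dose 12) to 79.2 (extract high dose 23). The vehicle still overlapped every treated group, because vehicle 5 was above all other libraries but extract high dose 23. Ordered by mean, the levels were 86.9 ± 71.4 FPKM (SD, 3 libraries) in the extract high dose, 54.9 ± 63.0 in the vehicle, 54.8 ± 48.8 in the cymopol low dose, 52.4 ± 9.01 in the cymopol high dose and 30.4 ± 24.3 in the extract low dose. Neighbours in that order differed by less than their SD, except that the extract low dose lay further below the cymopol high dose than the latter's SD. Of the 50-base words in Abcb1a transcripts, 22.5% occur in other genes too, 16.3% in its close copy Abcb1b, so reads of the pair may have been split between them and both values are uncertain.

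Abcg2 (chromosome 6, 58584523 to 58695676, plus strand) encodes BCRP, an apical pump for sulfate conjugates, porphyrins and many drugs. It was listed at 0, 26.3 and 13.3 FPKM in the vehicle, at 0, 7.05 and 12.1 in the cymopol low dose and at 16.7, 18.7 and 46.5 in the cymopol high dose. In the extract low dose it was listed at 1.75, 5.80 and 3.80, and in the extract high dose at 10.2, 23.1 and 14.996. By listed value, each high dose group lay wholly above its own low dose group. Neither lay wholly above the vehicle, since vehicle 4 exceeded 5 of the 6 high dose libraries. The low dose values rested on few fragments, an estimated 0, 0.585 and 4.97 for cymopol and 0.551, 1.52 and 0.280 for the extract. Deposited bounds overlapped between doses. They were 0 to 25.5 in cymopol low dose 34 and 9.36 to 24.0 in cymopol high dose 11. They were 0 to 15.2 in extract low dose 27 and 0.993 to 19.5 in extract high dose 21. The deposited lower bound was above 0 in 8 of 15 libraries, the 6 high dose libraries, vehicle 4 and cymopol low dose 35.

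Abcc2 (chromosome 19, 43782192 to 43840740, plus strand) encodes MRP2, the apical pump for glucuronide and glutathione conjugates, best known from the bile canaliculus and the small intestine. It was the member that depended most on 1 library. In the vehicle it was listed at 68.0, 0.0614 and 0 FPKM, in the cymopol low dose at 0, 0 and 1.10 and in the cymopol high dose at 0, 3.78 and 10.3. In the extract low dose it was listed at 0.00725, 6.13 and 0, and in the extract high dose at 0.306, 7.67 and 2.98. Vehicle 2, with deposited bounds of 47.6 to 88.3 and an estimated 44.6 fragments, was the only library in which Abcc2 ranked first of the 6 pumps. Outside it the highest value was 10.3, and Abcc2 was at or above 1 FPKM in 7 of 15 libraries. Vehicle 2 was also the library with the largest intergenic share, 46.8%, and the smallest share of fragments in genes, 8.52%.

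Abcc1 (chromosome 16, 14361558 to 14475737, plus strand) encodes MRP1, a broadly expressed exporter of glutathione conjugates and leukotriene C4. Its values were 0, 8.54 and 3.50 FPKM in the vehicle, 0.783, 4.42 and 6.48 in the cymopol low dose and 2.69, 5.42 and 7.05 in the cymopol high dose. In the extract low dose they were 0.0203, 2.65 and 15.9, and at the high dose of the extract 2.59, 5.91 and 5.08. All groups overlapped, and the highest value of the 15 was in a low dose library, extract low dose 29. Its lower bound was above 0 in 6 libraries, and 9 libraries had an estimate under 3 fragments.

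Abcc3 (chromosome 11, 94343295 to 94392997, minus strand) encodes MRP3, the basolateral exporter of glucuronides and bile acid conjugates and an abundant MRP of the colon. It was the member measured with the most certainty: its lower bound was above 0 in all 15 libraries, and none of its 50-base words occurs in another gene. It was listed at 3.65, 51.0 and 23.3 FPKM in the vehicle, at 14.6, 20.5 and 62.8 in the cymopol low dose and at 73.6, 15.6 and 13.5 in the cymopol high dose. It was listed at 7.52, 26.7 and 62.9 in the extract low dose and at 71.4, 67.2 and 81.7 in the extract high dose. The 3 extract high dose libraries lay close together, above all vehicle and all extract low dose libraries, and no other group was as narrow. Ordered by mean, the levels were 73.4 ± 7.42 FPKM (SD, 3 libraries) in the extract high dose, 34.3 ± 34.1 in the cymopol high dose, 32.6 ± 26.3 in the cymopol low dose, 32.4 ± 28.1 in the extract low dose and 26.0 ± 23.8 in the vehicle. The last 4 did not differ beyond their spread. Cymopol high dose 11 was as high as the extract high dose, while cymopol high dose 12 and 14 were below 2 of the 3 vehicle libraries. The nearest vehicle library, vehicle 4, had deposited bounds of 40.1 to 61.9, which reach into those of extract high dose 23, 57.5 to 76.9.

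Abcc4 (chromosome 14, 118482692 to 118706219, minus strand) encodes MRP4, which exports cyclic nucleotides, prostaglandins, urate and drug conjugates. It was the lowest or second lowest of the 6 in 12 libraries, and tied for the lowest at 0 in vehicle 2 and cymopol low dose 33. It was listed at 0, 0 and 1.51 FPKM in the vehicle, at 0, 1.60 and 0.401 in the cymopol low dose and at 1.18, 1.94 and 0.610 in the cymopol high dose. In the extract low dose it was listed at 0, 1.62 and 0.547, and in the extract high dose at 11.8, 1.98 and 3.80. The extract high dose libraries were the 3 highest of the 15, with extract high dose 23 only just above cymopol high dose 12. The kind of value moved with this group: all 3 extract high dose values and that of cymopol high dose 14 came from assembled loci, and the other 11 from annotated rows. The part of that change in the difference was not tested.

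**Figure D1:**
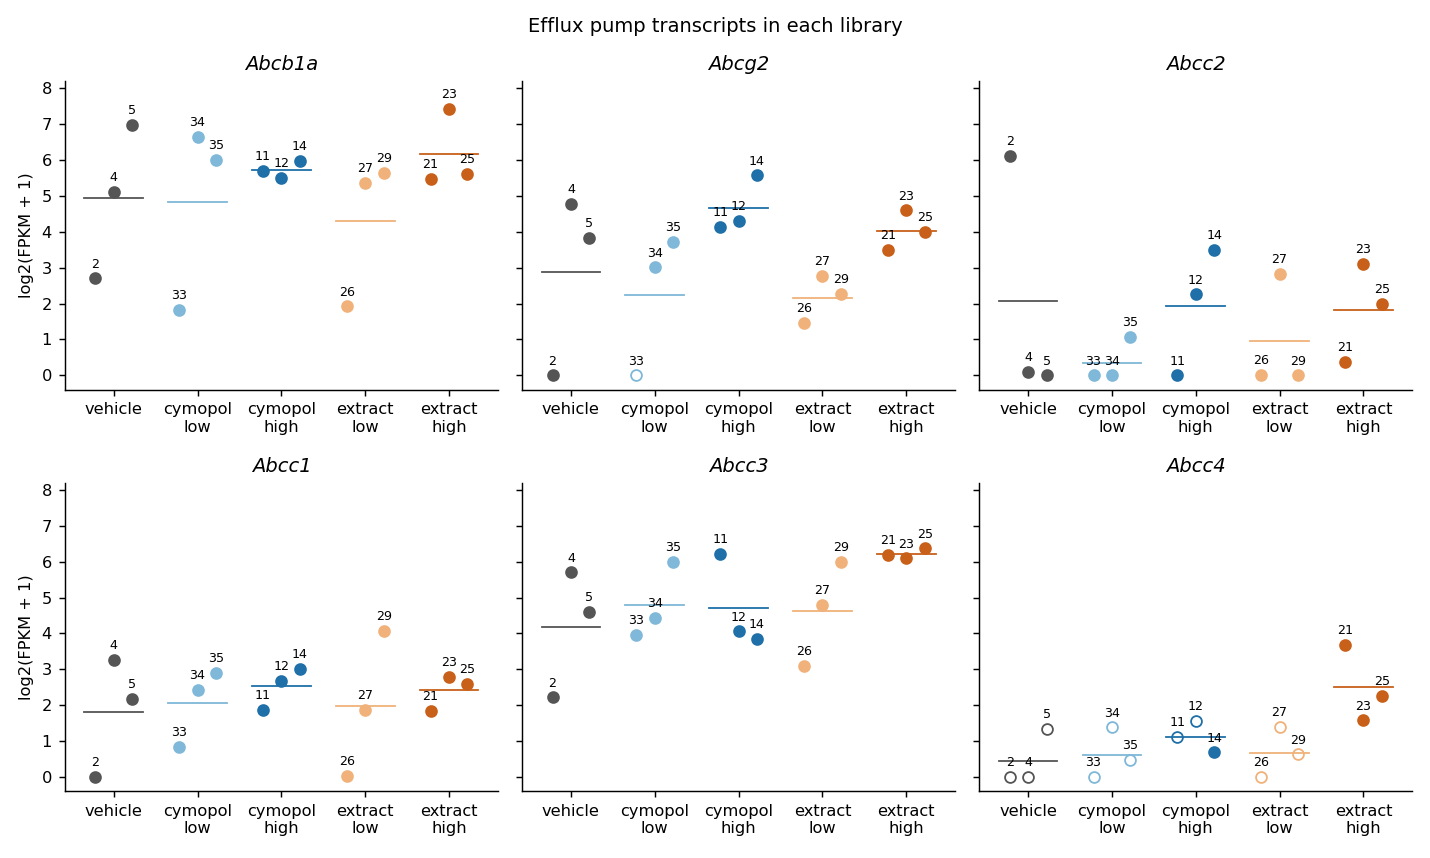
Level of each efflux pump transcript, as log2(FPKM + 1), in the 3 libraries of each of 5 groups. Points carry replicate numbers, lines are group means, filled points are values from assembled loci and open points values from annotated rows. Abcc3 in the extract high dose is tight and above the vehicle, while vehicle 2 stands alone for Abcc2.

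**Figure D2:**
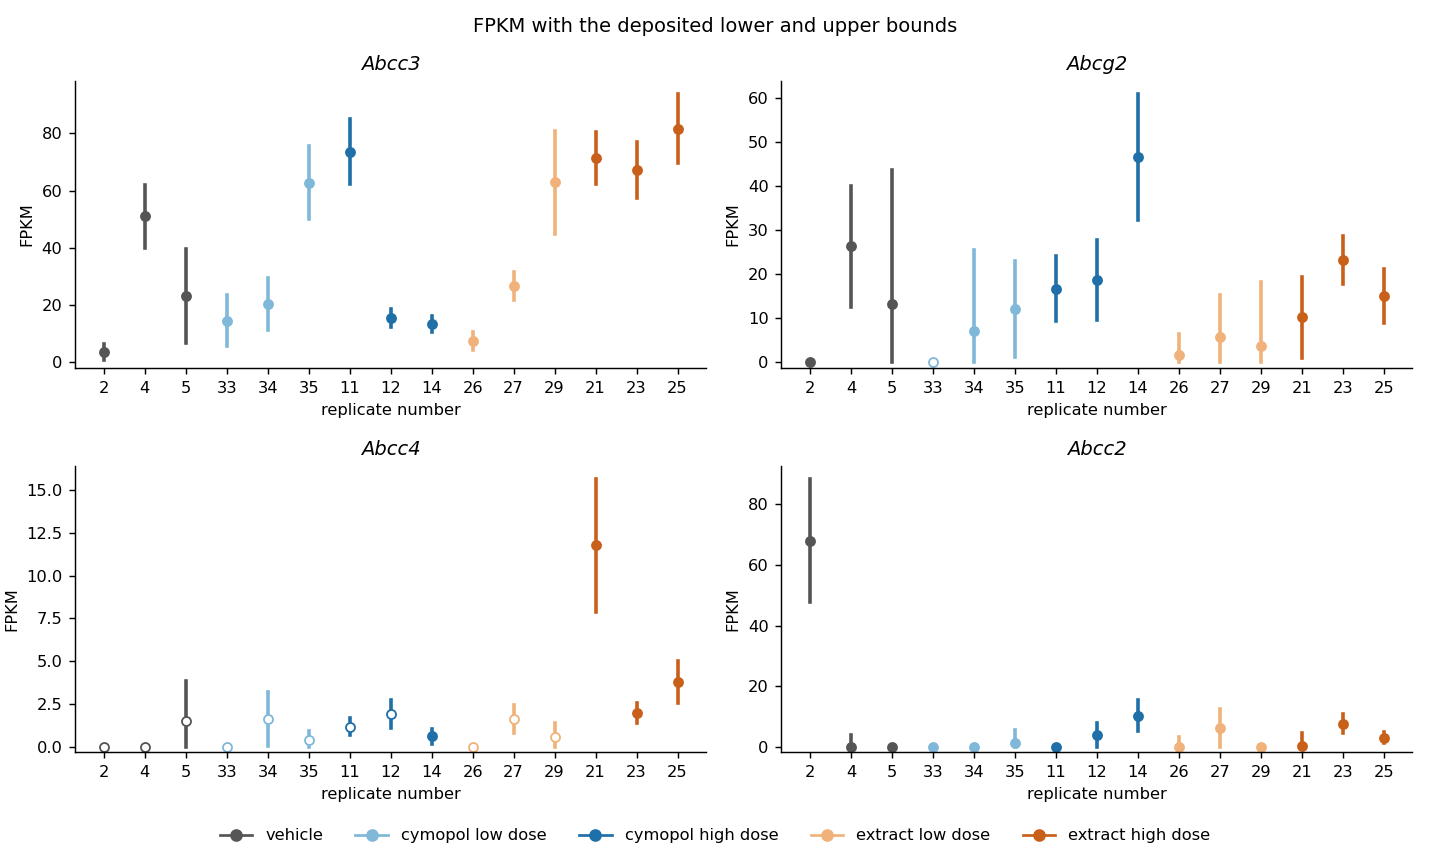
FPKM of Abcc3, Abcg2, Abcc4 and Abcc2 by library, in linear units with a separate scale per gene. Points are deposited values (open where from an annotated row) and vertical lines run between the deposited bounds. The bounds of vehicle 4 for Abcc3 (40.1 to 61.9) reach those of extract high dose 23, and extract high dose 21 is the highest library for Abcc4 at 11.8.

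Groups were compared by the difference of their mean log2(FPKM + 1), tested with limma on all 15 libraries and adjusted over all 11505 genes by the Benjamini-Hochberg method. They understate the change of low genes. None of the 6 members passed an adjusted p of 0.05 in any of the 6 comparisons. Few genes of any kind did: against the vehicle, the share of all genes called was 0.0174% (cymopol high dose), 0% (cymopol low dose), 0.00869% (extract high dose) and 0% (extract low dose), and it was 0.00869% in each comparison of doses. At an unadjusted p under 0.05, the members gave 1 gene, Abcc4, when the extract high dose was set against the vehicle, where 11.6% of all genes reached that p, and Abcc4 again between the extract doses, where 7.29% did. They gave 0 in the other 4 comparisons, against 13.2% of all genes (cymopol high dose), 5.68% (cymopol low dose), 3.92% (extract low dose) and 5.84% (between the cymopol doses).

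When the extract high dose was set against the vehicle, 5 of the 6 members had a difference above 0, as had 77.1% of all genes. The groups did not overlap for 2 members, Abcc3 and Abcc4, both higher, and for 19.3% of all genes in that direction. The median of all genes was itself shifted by 0.71, so values are also given relative to it. Abcc3 differed by 2.04 ± 1.27 (SE), 1.33 above the median of all genes (adjusted p = 0.527, limma), with all 3 extract libraries above all 3 vehicle libraries. Abcc4 differed by 2.06 ± 0.81, 1.35 above that median (adjusted p = 0.366), with the same separation. The apical pumps Abcb1a and Abcg2 differed by 1.24 ± 1.40 and 1.16 ± 1.24, and their groups overlapped. Abcc2 differed by -0.23 ± 1.22, and Abcc1 by 0.60 ± 1.11. Of all genes, 10.5% had a larger difference than Abcc3 and 10.1% a larger one than Abcc4.

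The Abcc3 separation between the extract high dose and the vehicle was present on each of 4 scales, the Abcc4 separation on the deposited scale only. After median-of-ratios scaling, quantile normalization and scaling to protein-coding genes, 15.1%, 9.34% and 22.9% of all genes were higher without overlap, Abcc3 among them each time and Abcc4 never. The Abcc3 difference was 1.04, 1.68 and 2.13 on these scales, and that of Abcc4 1.71, 1.21 and 4.23. The median of all genes on the same scales was 0.25, -0.05 and 1.70. The size of the Abcc3 difference depended on the vehicle libraries: it was 1.06 without vehicle 2, 2.80 without vehicle 4 and 0.51 without the libraries over 20% intergenic, when vehicle 4 alone stood for the vehicle. For Abcc4 the corresponding values were 1.84, 1.84 and 2.50, with 1.48 without extract high dose 21 and 4.18 with a pseudocount of 0.1.

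In the cymopol high dose against the vehicle, 5 of 6 members had a difference above 0, beside 79.5% of all genes, and 1 of 6 lay above the median of all genes, 0.81. That member was Abcg2, at 1.80 ± 1.24 (adjusted p = 0.519). Abcb1a differed by 0.80 ± 1.40, Abcc1 by 0.72 ± 1.11, Abcc4 by 0.68 ± 0.81, Abcc3 by 0.54 ± 1.27 and Abcc2 by -0.15 ± 1.22. The groups overlapped for all 6, while 19.5% of all genes were higher without overlap. For Abcg2 the sign depended on vehicle 2 and 5, since the difference was -0.10 when those libraries were left out and vehicle 4 alone stood for the vehicle.

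At the low doses the values of every member overlapped those of the vehicle. In the cymopol low dose 3 of 6 had a difference above 0, against 59% of all genes, and the 3 apical pumps were all below 0: Abcb1a at -0.11 ± 1.40, Abcg2 at -0.63 ± 1.24 and Abcc2 at -1.71 ± 1.22. Abcc1, Abcc3 and Abcc4 were at 0.25 ± 1.11, 0.62 ± 1.27 and 0.18 ± 0.81. In the extract low dose 3 of 6 had a difference above 0, against 41.8% of all genes, again none of the apical pumps, with Abcb1a at -0.63 ± 1.40, Abcg2 at -0.71 ± 1.24 and Abcc2 at -1.12 ± 1.22. The basolateral or mixed pumps Abcc1, Abcc3 and Abcc4 were at 0.18 ± 1.11, 0.45 ± 1.27 and 0.23 ± 0.81. On the deposited scale 3.89% and 1.23% of all genes were higher without overlap in these comparisons. Abcc3 was higher in the extract low dose without overlap after quantile normalization (6.45% of all genes) and after scaling to protein-coding genes (4.84%), and Abcc2 lower in the cymopol low dose after quantile normalization (4.43%). Adjusted p was 0.929 or more in the first and 1 throughout the second. These comparisons share the 3 vehicle libraries. The sign of each apical pump turned at both doses when 1 vehicle library was left out. Without vehicle 2 Abcc2 stood at 0.31 in the cymopol low dose and 0.91 in the extract low dose. Without vehicle 4 Abcg2 stood at 0.32 and 0.24, and without vehicle 5 Abcb1a stood at 0.92 and 0.40. Scaling turned 3 of these 6 signs, while Abcc2 at both doses and Abcg2 at the cymopol low dose stayed below 0 under the 3 scalings. After scaling to protein-coding genes Abcb1a stood at 0.10 in the cymopol low dose and 0.68 in the extract low dose, and Abcg2 at 1.70 in the latter. The median of all genes was then 0.71 in the cymopol low dose and 0.46 in the extract low dose.

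Between the cymopol doses, 5 of 6 members had a difference above 0, beside 76.8% of all genes. Abcg2 was the 1 member whose groups did not overlap, higher in the high dose by 2.43 ± 1.24 and 1.84 above the median of all genes (adjusted p = 0.862). Of all genes, 9.74% were higher without overlap, and 2.23% had a larger difference than Abcg2. Its separation was present after median-of-ratios scaling (2.09, with 8.66% of all genes separate), quantile normalization (2.05, 5.14%) and scaling to protein-coding genes (3.51, 9.08%). The median of all genes on these scales was 0.25, -0.02 and 0.93. The Abcg2 difference was 1.31 without cymopol low dose 33. In that library Abcg2 was listed at 0 from an annotated row, while the other 14 values came from assembled loci. Abcg2 had an estimated 0.585 fragments in cymopol low dose 34 and 4.97 in cymopol low dose 35. Abcc2 differed by 1.56 ± 1.22, Abcb1a by 0.90 ± 1.40, Abcc4 by 0.50 ± 0.81, Abcc1 by 0.47 ± 1.11 and Abcc3 by -0.08 ± 1.27.

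Between the extract doses all 6 members had a difference above 0, as had 88% of all genes, and the median of all genes was 0.89. Abcg2, Abcc3 and Abcc4 were higher in the high dose without overlap, as were 20.9% of all genes. Abcg2 differed by 1.87 ± 1.24, Abcc3 by 1.59 ± 1.27 and Abcc4 by 1.83 ± 0.81 (adjusted p = 0.638). Abcb1a differed by 1.86 ± 1.40, Abcc2 by 0.88 ± 1.22 and Abcc1 by 0.42 ± 1.11. None of the 3 separations was present after median-of-ratios scaling, quantile normalization or scaling to protein-coding genes, where 11.5%, 5.53% and 13.7% of all genes were separate. Under those scalings Abcg2 differed by 0.29, 0.55 and 0.75, Abcc3 by -0.14, 0.47 and 0.23, and Abcc4 by 1.46, 1.09 and 3.15. The median of all genes was then 0.31, -0.03 and 1.25. Extract low dose 26 had the smallest summed FPKM in genes, 20442, against 128092 to 196922 in the extract high dose, and without it Abcc3 differed by 0.82. Abcg2 had an estimated 0.551 fragments in that library, 1.52 in extract low dose 27 and 0.280 in extract low dose 29. Without extract low dose 26, Abcg2, but not Abcc3 or Abcc4, was higher without overlap under each of those scalings. The shares of all genes were then 15.4%, 10.2% and 16.9%. The cymopol dose difference minus the extract dose difference was also tested with limma. None of the 11505 genes was called (adjusted p = 0.999987 for each member).

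**Figure D3:**
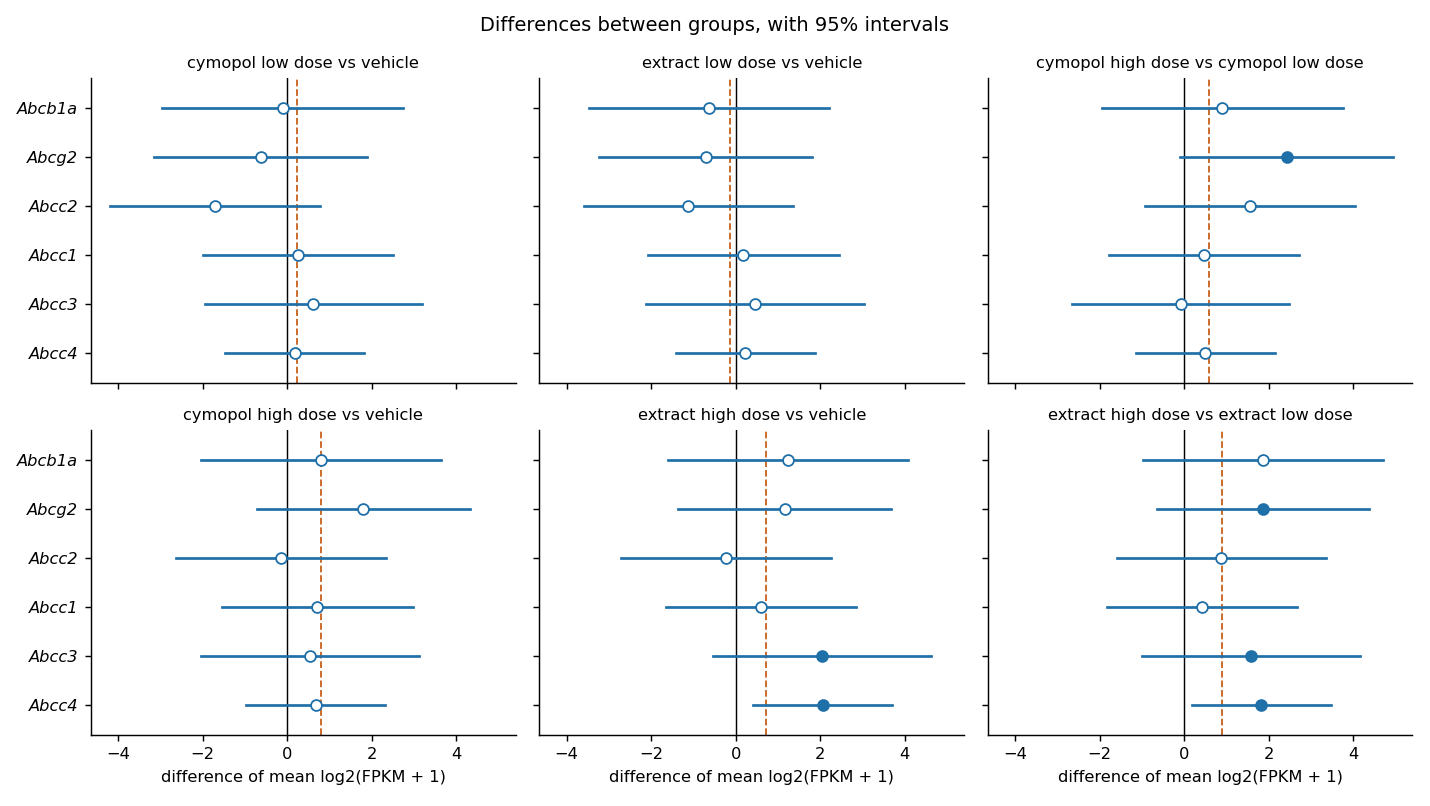
Difference of mean log2(FPKM + 1) for each member in 6 comparisons, with 95% intervals from limma. Filled points mark groups that did not overlap, solid vertical lines mark 0 and dashed lines the median of all 11505 genes. Intervals of Abcc4 in the lower middle and lower right panels lie above 0 before adjustment, and the others include 0.

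**Figure D4:**
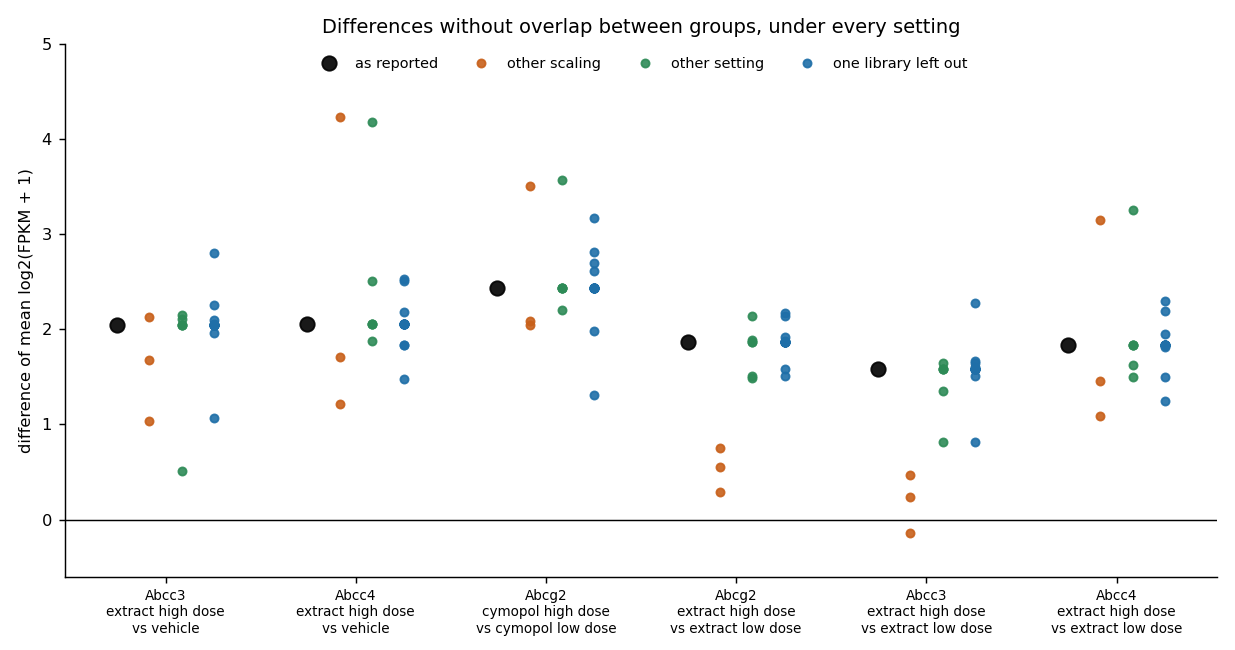
The 6 differences without overlap between groups, as difference of mean log2(FPKM + 1), with a pseudocount of 0.1 in 1 setting, as reported and under each alternative scaling, other setting and left-out library. Abcc3, Abcc4 and Abcg2 stay above 0 in the first 3 columns, between 0.51 and 4.23, and Abcc3 between the extract doses reaches -0.14 after median-of-ratios scaling.

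Genes that work beside the 6 pumps were taken from lists, and no listed gene was called in any of the 6 comparisons. A gene high in 1 group can pass the filter through that group alone, so counts and medians over tested genes are descriptions. Of 7 other multidrug and organic anion ABC genes, 4 were tested, with a median difference from the vehicle of 1.25 in the cymopol high dose and 0.61 in the extract high dose, beside 0.81 and 0.71 for all genes. Abcb1b, the second mouse P-glycoprotein gene, was listed at 0 in all 3 vehicle libraries and at 2.21, 5.23 and 0.404 FPKM in the cymopol high dose, a difference of 1.60 ± 0.60 (adjusted p = 0.296). It was thus low beside Abcb1a, with which it shares sequence, and in the extract high dose it was listed at 0, 0.210 and 0.508. Abcc6 differed by 0.94 in the extract high dose (adjusted p = 0.493) and Abcc5 by -0.89 in the extract low dose (adjusted p = 1). Of 29 other ABC genes, 22 were tested, with medians of 0.67 and 0.35. Abcg5, a subunit of the apical sterol pump, was listed at 0 in the vehicle and at 1.73, 21.7 and 1.14 FPKM in the extract high dose (adjusted p = 0.386), and Abcb8, a mitochondrial ABC protein, at 1.08, 1.24 and 0 in the vehicle and 65.1, 4.55 and 1.86 in the cymopol high dose (adjusted p = 0.348). The highest Abcg5 value was in the extract low dose, at 0, 23.1 and 0. Abcg5 stood at 0.438, 0 and 7.31 in the cymopol high dose. Abcb8 stood at 2.75, 9.32 and 2.28 in the extract high dose. Abcb9, a lysosomal peptide transporter, differed by -1.36 in the extract low dose (adjusted p = 1) and Abcd2, a peroxisomal ABC protein, by -1.01 in the extract high dose (adjusted p = 0.561).

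Of 14 regulators of efflux pump transcription, all tested, 14 had a difference above 0 in each high dose, beside 79.5% (cymopol) and 77.1% (extract) of all genes. The regulators had medians of 1.50 for cymopol and 1.31 for the extract. Those above the median of all genes numbered 11 and 12. Nr1h3, which encodes the oxysterol receptor LXR alpha, was listed at 0, 0.975 and 0 FPKM in the vehicle and at 8.55, 5.01 and 10.9 in the cymopol high dose, without overlap (adjusted p = 0.295). Such a separation was found for 19.5% of all genes in that direction. In the extract high dose Nr1h3 stood at 3.23, 7.68 and 2.88. Nr1i3, which encodes CAR, differed by 1.24 in the extract high dose (adjusted p = 0.414), Nr1i2, which encodes PXR, by -1.04 in the cymopol low dose (adjusted p = 0.958) and Arnt, the partner of AHR, by -0.47 in the extract low dose (adjusted p = 1). Of 14 other target genes of NRF2, AHR and PXR, 9 were tested: Nqo1, Hmox1, Gclc, Gclm, Srxn1, Txnrd1, Tiparp, Cyp3a13 and Cyp2c55. Their medians were 1.65 in the cymopol high dose and 2.37 in the extract high dose, with 6 and 9 of the 9 above the median of all genes. Cyp1a1, Cyp1b1, Ahrr, Cyp3a11 and Cyp2b10 did not pass the filter on low values, so these medians leave them out. Their highest value was 1.74 FPKM, for Cyp1a1 in extract high dose 23. Nqo1, the quinone reductase, was listed at 0.167, 0 and 0 FPKM in the vehicle and at 22.4, 7.45 and 8.03 in the extract high dose, a difference of 3.53 ± 1.03 (adjusted p = 0.269). In the cymopol high dose Nqo1 stood at 5.15, 5.31 and 4.19. At the low doses it stood at 0, 8.96 and 3.23 for the extract and at 0, 0 and 6.64 for cymopol. Hmox1, heme oxygenase 1, was listed at 0 in the vehicle and at 23.0, 5.10 and 2.96 in the extract high dose (adjusted p = 0.290). In the cymopol high dose Hmox1 stood at 4.38, 1.88 and 1.02. Its low dose values were 0, 3.07 and 0 for the extract and 0, 0 and 4.79 for cymopol. Gclm differed by -1.70 in the cymopol low dose (adjusted p = 0.933) and Cyp3a13 by -0.57 in the extract low dose (adjusted p = 1).

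The conjugating enzymes supply the anions that the MRPs and BCRP carry. Of 13 glucuronosyl- and sulfotransferases, 8 were tested, with medians of 1.47 in the cymopol high dose and 1.18 in the extract high dose. Sult1b1, a colonic sulfotransferase, was listed at 0, 0.444 and 0 FPKM in the vehicle and at 6.85, 12.5 and 12.1 in the cymopol high dose, without overlap, a difference of 3.30 ± 1.03 (adjusted p = 0.243). Such a separation was found for 19.5% of all genes in that direction. In the extract high dose Sult1b1 stood at 2.55, 18.9 and 2.23. Sult1c2 was listed at 0 in the vehicle and at 2.15, 0.954 and 1.52 in the extract high dose (adjusted p = 0.383). In the cymopol high dose Sult1c2 stood at 1.59, 2.56 and 0.165. Ugt2b5 and Sult1a1 differed by -1.24 and -1.32 in the extract low dose (adjusted p = 1 for both). Of 18 uptake and exchange carriers, 15 were tested, with medians of 1.25 and 0.84. Slc22a4, the ergothioneine carrier, was listed at 0 in the vehicle and at 1.65, 0.898 and 6.64 in the cymopol high dose (adjusted p = 0.276), and Slc47a1, a proton-coupled cation exporter, at 0 and at 0.385, 2.23 and 10.0 (adjusted p = 0.297). In the extract high dose Slc22a4 stood at 1.21, 0 and 1.66 and Slc47a1 at 0.131, 0 and 4.11. Slco3a1 and Slc16a1 differed by -1.34 and -0.88 in the extract low dose (adjusted p = 1 for both). The 6 scaffolds that hold apical pumps in the membrane, such as Slc9a3r1 and Pdzk1, had medians of 0.79 and 0.31. Slc9a3r1 and Pdzk1 differed by 1.87 and 1.03 in the cymopol high dose (adjusted p = 0.555 and 0.620), and Rdx and Pdzk1 by -0.77 and -0.71 in the extract low dose (adjusted p = 1 for both). Both Pdzk1 differences rested on 1 library. It was listed at 0, 3.39 and 0 FPKM in the vehicle and at 0, 0 and 36.1 in the cymopol high dose. All extract low dose libraries listed it at 0.

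**Figure D5:**
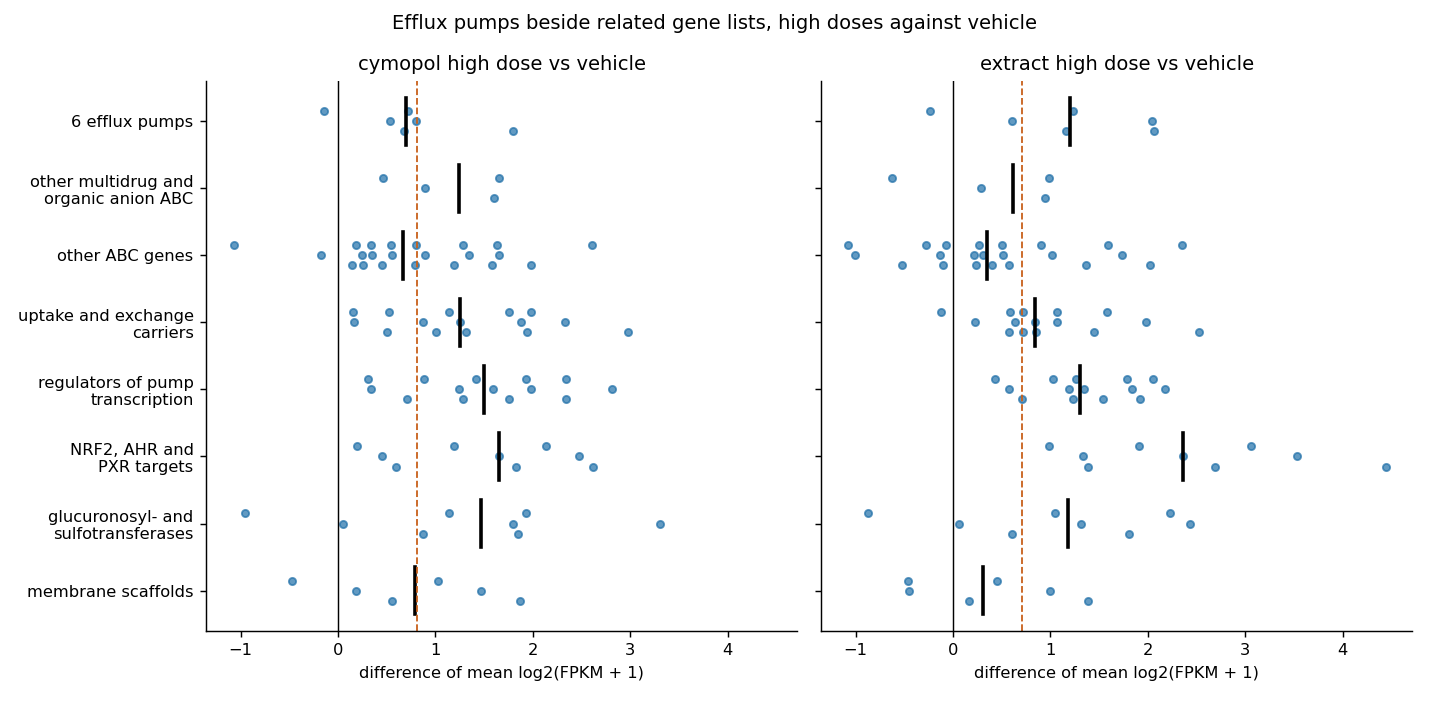
Difference of mean log2(FPKM + 1) against the vehicle for tested genes of each list, cymopol high dose on the left and extract high dose on the right. Points are genes, short vertical bars list medians, the dashed line the median of all genes (0.81 and 0.71). The 6 pumps have medians of 0.70 and 1.20, and the 9 tested of 14 listed NRF2, AHR and PXR targets 1.65 and 2.37.

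The members varied partly together across the 15 libraries, which also share depth and composition, and the correlations describe that only. Pearson's r of log2(FPKM + 1) was 0.80 between Abcb1a and Abcg2, 0.76 between Abcb1a and Abcc1, 0.71 between Abcg2 and Abcc1 and 0.67 between Abcc1 and Abcc3. Abcc4 reached at most 0.52, with Abcb1a, and Abcc2 had an r below 0 with each of the other 5, from -0.42 with Abcc3 to -0.06 with Abcb1a. The genes most like each member among all tested protein-coding genes were Sri (r = 0.96), Fam214b and Cox7a2 for Abcb1a, Rps9 (0.93), Cited2 and Pepd for Abcg2, and Fbxl19 (0.95), Calm3 and Cdk16 for Abcc1. They were Ncoa7 (0.85), Oaz1 and Fam162a for Abcc3, Dhx58 (0.87), Celsr1 and Nck2 for Abcc4, and Erich1 (0.96), Slc7a8 and Dmkn for Abcc2. The median r with all genes was 0.42 for Abcb1a, 0.47 for Abcg2, 0.43 for Abcc1, 0.37 for Abcc3, 0.25 for Abcc4 and -0.01 for Abcc2. Without the 2 libraries farthest from each member's median, the first-named gene had r = 0.89 for Abcb1a, 0.82 for Abcg2, 0.89 for Abcc1, 0.77 for Abcc3, 0.67 for Abcc4 and 0.94 for Abcc2.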

How the data were processed

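RNA of the large intestine was sequenced in 15 libraries of 5 groups. Per the labels' protocols, ribosomal RNA was removed from 90 ng of total RNA before a low-input library preparation. The submitters' processing notes name the aligner STAR 2.4.0j and the build GRCm38.p4. The authors deposited 1 table of FPKM per library with a lower and an upper bound. Per the file headers these are gene tracking tables. The sources used here do not name the quantifier's version or settings.

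Annotated identifiers were read as given. An assembled locus was given to a GENCODE M21 gene without a value of its own when they overlapped over at least 0.5 of their combined span and neither had a better partner. Fragments were estimated from the width of the bounds, taken as 2 SD of a Poisson count, so depth is approximate. The 11505 genes tested had values in every one of the 15 libraries, of which 3 or more reached 1 FPKM. limma 3.58.1 in R 4.3.3 was fitted to log2(FPKM + 1) with 1 mean per group, all 15 libraries and an intensity trend. Tests were two-sided, with Benjamini-Hochberg adjustment over the genes of a comparison. With 3 libraries on each side, the smallest p of an exact test is 0.1. Replicate numbers differ between groups, so libraries were not paired.

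The members and lists were chosen with earlier results of these data known. Of each list, the 2 higher and the 2 lower genes with the smallest p against the vehicle are named, where there were as many, and 3 genes most like each member. Alternatives were another pseudocount (0.1), no filter on low values, median-of-ratios scaling, quantile normalization, only the groups compared, library weights, annotated identifiers only, added exonic pieces and leaving libraries out. Scaling to protein-coding genes was added after seeing the data. Promoters are those of RefSeq on GRCm38.p6, found for 4 of the 6 members and not for Abcc1 and Abcc3. No protein sequence was used.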

Additional observations from a re-analysis of the deposited data

How the results depend on the processing

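Of the 6 members, 0 were called in each comparison under every alternative that gave them a value. Of 864 member differences under alternatives, 432 could not or did not move from the reported value, since the alternative left the 2 groups or the members' values as they were. Of the 432 that moved, 354 kept their sign and 78 changed it. The smallest adjusted p of a member was 0.234, for Abcc4 in the extract high dose versus vehicle after scaling to protein-coding genes. Abcc3 and Abcc4 against the vehicle in the extract high dose, and Abcg2 between the cymopol doses, kept their sign under the 12, 12 and 11 alternatives that moved them. With annotated identifiers only, no member had a value in all 15 libraries. Without the filter on low values, over 43316 genes, limma reported that most residual variances were 0, so that fit is unreliable. No paired analysis was possible because the groups share no replicate numbers. The cause of the changes below was not tested.

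The counts of all genes called are given in the order cymopol high dose, cymopol low dose, extract high dose and extract low dose against the vehicle, then between cymopol doses and between extract doses. They were 2, 0, 1, 0, 1 and 1 as reported. They became 7, 0, 3, 1, 0 and 1 with a pseudocount of 0.1, and 0, 2, 3, 1, 0 and 1 after median-of-ratios scaling. They became 3, 2, 2, 0, 0 and 1 after quantile normalization, and 9, 27, 6, 10, 0 and 1 after scaling to protein-coding genes. With only the groups compared all were 0, with library weights the last was 13, and without the filter or with annotated identifiers only (1106 genes) the first and the fifth were 0. Without the 3 libraries over 20% intergenic they were 162, 350, 206, 251, 0 and 1. Of the first 4 counts, 152, 345, 199 and 246 genes were lower than the vehicle, where the genes called as reported were all higher. That setting has vehicle 4 as the lone vehicle library, assumed to vary like the other groups. Leaving out 1 library at a time gave 0 to 8, 0 to 9, 1 to 8, 0 to 8, 0 to 3 and 1 to 2, and the highest counts against the vehicle came without vehicle 2 or, for the extract low dose, vehicle 5.

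Differences that changed sign were these. With a pseudocount of 0.1, Abcc2 was 0.63 in the cymopol high dose and 1.05 in the extract high dose, and Abcg2 0.087 in the extract low dose. After median-of-ratios scaling, Abcb1a and Abcc3 were -0.41 and -0.60 in the cymopol high dose, Abcg2 0.72 in the extract low dose, and Abcc1 and Abcc3 -0.042 and -0.14 between the extract doses. After quantile normalization, Abcc3 and Abcc4 were -0.10 and -0.27 in the cymopol high dose, Abcc4 -0.11 in the cymopol low dose, and Abcb1a and Abcg2 0.10 and 0.60 in the extract low dose. Between doses, Abcc1 and Abcc4 were then -0.32 and -0.15 for cymopol, and Abcc2 and Abcc1 -0.24 and -0.57 for the extract. With library weights, Abcc2 was 0.11 in the cymopol high dose, Abcc4 -8.03e-05 in the cymopol low dose, Abcc2 0.0056 in the extract low dose, Abcc3 0.049 between the cymopol doses and Abcc2 -0.025 between the extract doses. After scaling to protein-coding genes, Abcc2 was 0.29 in the cymopol high dose and 0.95 in the extract high dose, Abcb1a 0.10 in the cymopol low dose, and Abcb1a and Abcg2 0.68 and 1.70 in the extract low dose. The median of all genes was then 1.67, 1.70, 0.71 and 0.46 in these comparisons, in that order. Without the libraries over 20% intergenic, Abcg2, Abcc2, Abcc1 and Abcc3 were -0.10, 1.83, -0.73 and -0.99 in the cymopol high dose. Abcc2, Abcc1 and Abcc3 were then 0.27, -1.20 and -0.91 in the cymopol low dose, and Abcg2, Abcc2 and Abcc1 -0.74, 1.75 and -0.84 in the extract high dose. Abcb1a, Abcc2, Abcc1 and Abcc3 were then 0.39, 1.33, -0.28 and -0.30 in the extract low dose, and Abcc1 -0.56 between the extract doses.

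Leaving out 1 library at a time also changed some signs. In the cymopol high dose, the values ran for Abcb1a from -0.32 to 1.82, Abcc1 from -0.19 to 1.44, Abcc2 from -1.18 to 1.88 and Abcc3 from -0.44 to 1.30. In the cymopol low dose, the values ran for Abcb1a from -1.22 to 1.39, Abcc1 from -0.65 to 0.97, Abcc2 from -2.74 to 0.31, Abcc3 from -0.36 to 1.38, Abcc4 from -0.20 to 0.62 and Abcg2 from -2.06 to 0.49. In the extract high dose, the values ran for Abcc1 from -0.30 to 1.33, Abcc2 from -1.27 to 1.79 and Abcg2 from -0.28 to 2.11. In the extract low dose, the values ran for Abcb1a from -1.74 to 0.56, Abcc1 from -0.86 to 1.17, Abcc2 from -2.15 to 0.91, Abcc3 from -0.52 to 1.22, Abcc4 from -0.13 to 0.67 and Abcg2 from -2.14 to 0.24. The highest of these values of Abcc2 against the vehicle came without vehicle 2 in all 4 comparisons. Between the cymopol doses, the values ran for Abcb1a from -0.59 to 1.82, Abcc1 from -0.15 to 0.89 and Abcc3 from -0.84 to 0.52. Between the extract doses, the values ran for Abcc1 from -0.56 to 1.46.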
